A study of Aptenodytes patagonicus with 3 samples.

Results

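A set of 10 genes of oxygen sensing and vessel growth was read in the pectoralis, the flight muscle of the breast, of 3 artificially acclimated (AA) king penguin juveniles. They are HIF1A, EPAS1, ARNT, EGLN1, EGLN3, VHL, VEGFA, KDR, FLT1 and ANGPT1, and every probe set to which the platform annotation gives 1 of these symbols alone was taken. All 10 genes were found, on 23 of the 36813 probe sets and among 12913 named genes. The AA birds had moulted in captivity before their first contact with cold water and then spent 10 sessions of 5 hours, spaced 2 days apart, in a tank at 8 °C. By the labels bird 2 was a male and birds 1 and 3 were females, and all were juveniles that had not yet gone to sea when captured. Arrays of never-immersed or sea-acclimatized birds were not analysed here, so no change with immersion could be computed. The only label that differs between the arrays is sex, and with 1 male the sex and the bird cannot be told apart.

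In animal cells the oxygen level is read by the prolyl hydroxylases, EGLN1 and EGLN3 among them, which mark the alpha subunits of the hypoxia-inducible factors, HIF1A and EPAS1. VHL, the recognition part of a ubiquitin ligase, binds the marked subunits and sends them to the proteasome. When oxygen is short the alpha subunits persist, pair with ARNT and switch on genes of glucose use, mitochondrial turnover and vessel growth. VEGFA is the ligand that draws new capillaries, KDR its main signalling receptor on endothelium and FLT1 a receptor that largely holds the ligand back, while ANGPT1 steadies vessels through the receptor TEK. Control of HIF1A lies mostly at the level of protein stability, which an RNA array does not read.

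Each bird was hybridized to its own Affymetrix Chicken Genome array, so that penguin RNA was read with probes made for chicken. Values are log2 signals, normalised by the authors, and 1 unit is a doubling. Part of the signal is set by the match between penguin RNA and each chicken probe, so levels are compared between birds within a probe set and not between genes. Where a gene has several probe sets, the one with the highest mean is called the brightest. Medians of all values were nearly the same in the 3 arrays, since the arrays had been quantile normalised. On the brighter of the probe sets of HINTW, a gene of the female W chromosome, the male read 7.77 and the females 9.91 and 10.30, as the labels have it. On the other HINTW probe set the male read 8.56 and the females 8.27 and 8.38. The muscle fibre gene ACTA1, skeletal actin, sat at the top of every array at 15.27. None of the 9 members found by symbol in RefSeq's annotation of bAptPat1.pri.cur, a king penguin assembly, lies on chromosome Z or W, and VHL was not found there by symbol.

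The 10 genes varied between the AA birds about as much as other probe sets did, and EPAS1 and ANGPT1 varied most among them. Over the 23 probe sets the median SD between birds was 0.177 on the log2 scale, from 0.083 to 0.64, against a median of 0.191 over all probe sets. The whole range of the 3 birds was above 1 log2 unit on 1 member probe set, that of EPAS1, and above 0.5 on 4, those of EPAS1, ANGPT1, EGLN1 and VEGFA, each on its brightest probe set. Over all probe sets 4.56% had a range above 1 and 29.3% a range above 0.5.

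**Figure D1:**
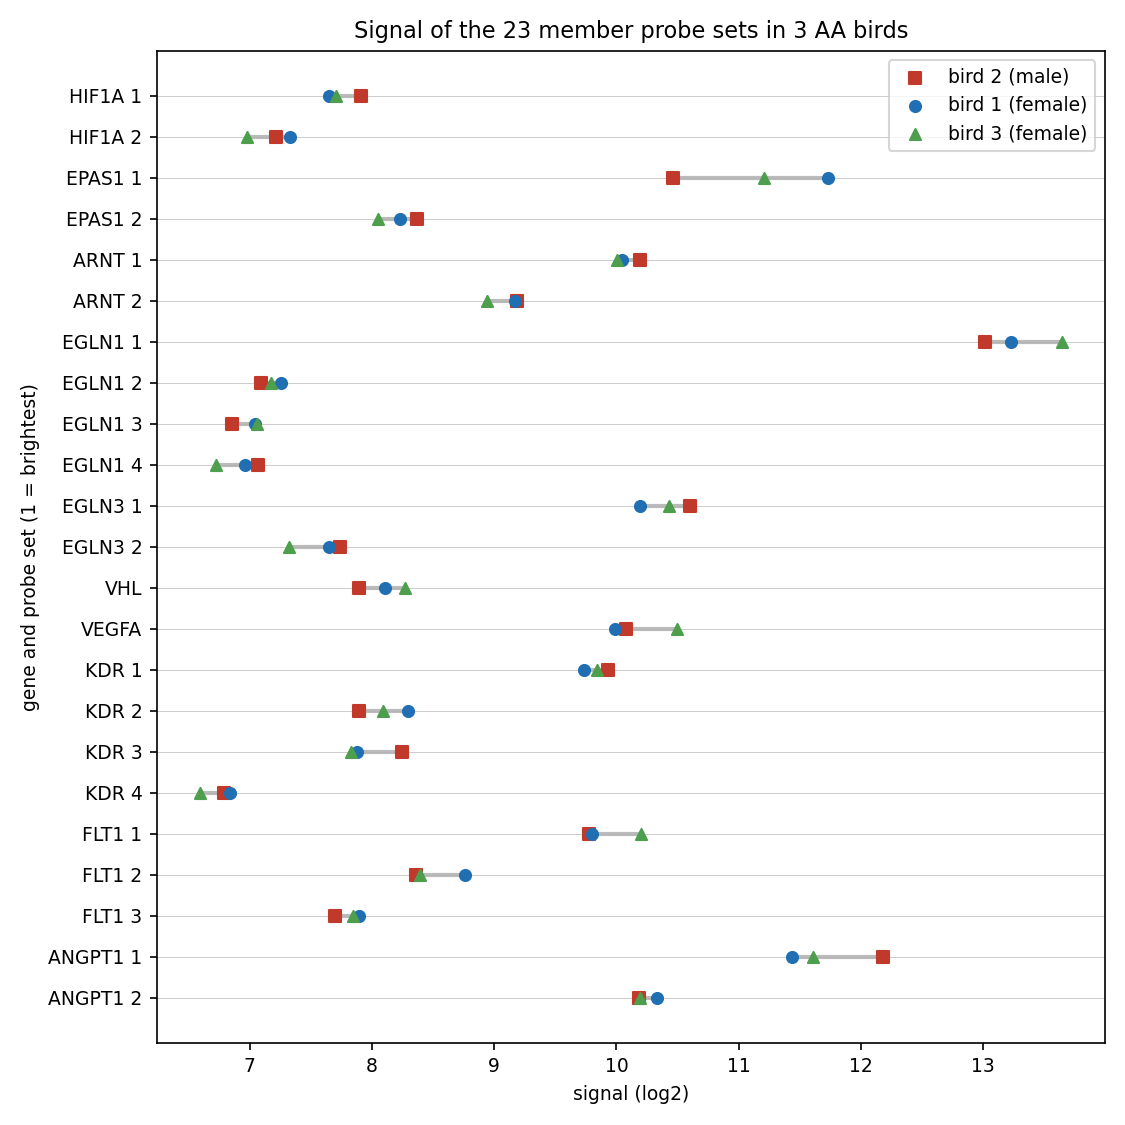
Log2 signal (x axis) of each of the 23 probe sets of the 10 genes (rows, brightest probe set of a gene numbered 1) in bird 2, the male (squares), and the females, bird 1 (circles) and bird 3 (triangles), with a grey line over the range. The 3 birds lie close together on most rows, and the brightest EPAS1 probe set has the widest range, 1.27.

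EPAS1, the alpha subunit also known as HIF2A and abundant in endothelium, was lowest in the male. On its brightest probe set it read 10.46 in the male, bird 2, and 11.73 and 11.21 in the females, birds 1 and 3. The male lay below both females, and the females themselves were 0.524 apart. The mean over the birds was 11.14 ± 0.64 (SD, n = 3), and 97.6% of all probe sets had a smaller SD. The difference, male minus females, was -1.01 (limma standard error 0.28, 95% interval -1.65 to -0.38, adjusted p = 0.282 from limma over all probe sets). The other EPAS1 probe set ran the opposite way, with 8.36 in the male and 8.23 and 8.05 in the females, a difference of 0.23. The direction for EPAS1 therefore rests on 1 probe set.

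HIF1A, the alpha subunit found in nearly all cells, gave a dim signal on both of its probe sets, whose means lay under 7.88, the lower quartile of all probe set means. On the brighter one it read 7.91 in the male and 7.65 and 7.71 in the females, a mean of 7.75 ± 0.137 (SD, n = 3). The male lay above both females by a difference of 0.23 (95% interval -0.29 to 0.76). On the dimmer one it read 7.21 in the male and 7.33 and 6.98 in the females, so that the male fell between them. ARNT, the partner of both alpha subunits, read 10.20 in the male and 10.05 and 10.003 in the females on its brightest probe set, which has an SD of 0.101. Its other probe set read 9.19 in the male and 9.17 and 8.94 in the females. ARNT had the same highest bird, the male, and the same lowest bird, bird 3, on both probe sets, with differences of 0.17 and 0.13.

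Among the oxygen sensors, EGLN1 and EGLN3 did not follow the same order of birds. EGLN1, the main hydroxylase in most tissues, read 13.02 in the male and 13.23 and 13.64 in the females on its brightest probe set, a mean of 13.30 ± 0.318 (SD, n = 3). The male was the lowest, with a difference of -0.42 (95% interval -1.01 to 0.18), about as large as the gap between the females, 0.416. Of the other 3 EGLN1 probe sets, all with means of 7.17 or less, the male was the lowest on 2, at 7.09 against 7.26 and 7.17 in the females and at 6.85 against 7.04 and 7.06. On the remaining one the male was the highest, at 7.07 against 6.96 and 6.72. The annotation gives 2 of these 4 probe sets, both of them dim, another gene number than the brightest one, although the symbol is the same.

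EGLN3, a hydroxylase gene that is itself induced by HIF, was highest in the male on both probe sets. The brightest read 10.60 in the male and 10.19 and 10.43 in the females (10.41 ± 0.208, SD, n = 3), a difference of 0.29 (95% interval -0.26 to 0.84). The other read 7.73 in the male and 7.65 and 7.32 in the females, a difference of 0.25. VHL had 1 probe set, with 7.89 in the male and 8.10 and 8.27 in the females (8.09 ± 0.189, SD, n = 3). There the male was the lowest, by a difference of -0.29 (95% interval -0.83 to 0.24).

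VEGFA, the ligand, was set apart by bird 3 and not by the male. It read 10.08 in the male and 9.99 and 10.50 in the females on its single probe set (10.19 ± 0.27, SD, n = 3). The females spanned the male, so the groups overlapped, and the difference was -0.17 (95% interval -0.79 to 0.46). Bird 3 was also the highest for FLT1 on its brightest probe set, with 9.77 in the male and 9.80 and 10.20 in the females. The other FLT1 probe sets read 8.36 in the male against 8.76 and 8.39 in the females, then 7.70 in the male against 7.89 and 7.85 in the females. The male was the lowest for FLT1 on all 3 probe sets, with differences from -0.23 to -0.17, while the highest bird changed from bird 3 to bird 1.

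KDR, the main VEGF receptor, gave nearly level signals on its brightest probe set and no common order across the others. The brightest read 9.93 in the male and 9.74 and 9.84 in the females, with an SD of 0.096, the smallest among the brightest probe sets of the 10 genes. The next read 7.89 in the male and 8.29 and 8.09 in the females, where the male was the lowest. On a further one the male was the highest, at 8.24 against 7.88 and 7.83. The dimmest, of a type that can bind several transcripts, read 6.78 in the male and 6.84 and 6.59 in the females, with the male between them. The differences ran from -0.30 to 0.39 over the 4 KDR probe sets.

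ANGPT1, the vessel-steadying ligand of TEK, was highest in the male on its brightest probe set. There it read 12.18 in the male and 11.43 and 11.61 in the females (11.74 ± 0.39, SD, n = 3), and 89.2% of all probe sets had a smaller SD. The male lay above both females, which were 0.179 apart. The difference was 0.66 (limma standard error 0.24, 95% interval 0.12 to 1.20, adjusted p = 0.409 from limma). On the other ANGPT1 probe set, also bright, the birds were level, with 10.18 in the male and 10.33 and 10.19 in the females and a difference of -0.08. As for EPAS1, 1 of 2 probe sets carried the difference.

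**Figure D2:**
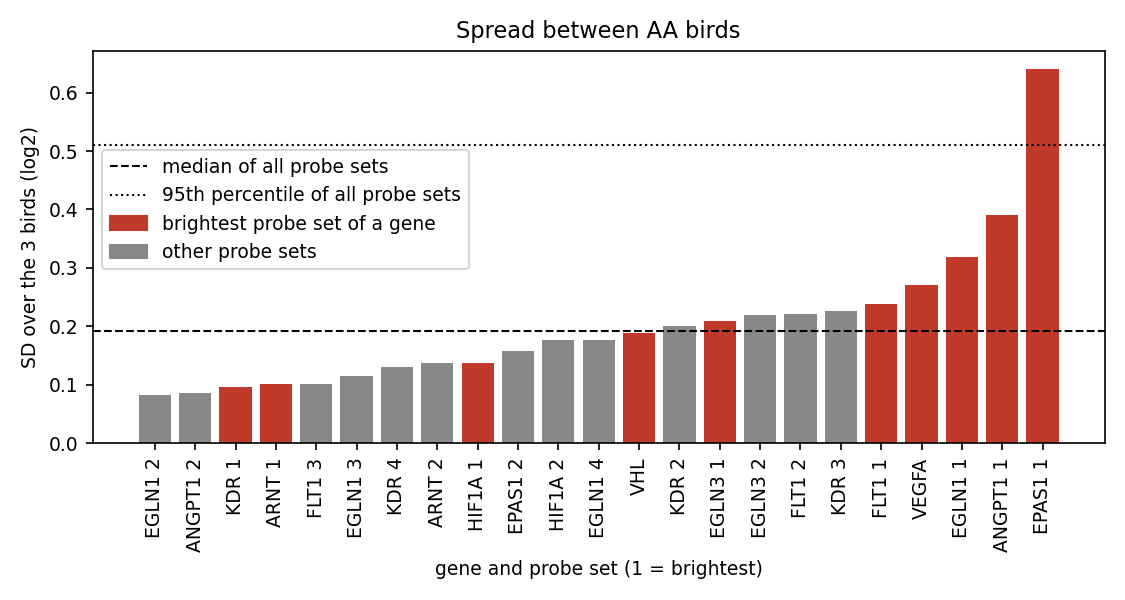
SD of the log2 signal over the 3 AA birds (y axis) for each of the 23 probe sets, in order of SD, with the brightest probe set of each gene in red and the others in grey. The dashed line is the median SD of all probe sets, 0.191, and the dotted line their 95th percentile, 0.51, which EPAS1 alone passes at 0.64.

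The male was set against the females with limma on all 36813 probe sets, and 0 of the 23 member probe sets passed an adjusted p of 0.05. This was also the count over all probe sets, 0%, where the smallest adjusted p was 0.0649. At an unadjusted p under 0.05, 2 of the 23 passed, EPAS1 lower and ANGPT1 higher in the male, beside 9.78% of all probe sets, which is about the same share. The male lay above both females on 10 of the 23 probe sets and below both on 10, beside 41.4% and 31.1% of all probe sets. The test had 1 residual degree of freedom, and the spread among males was taken to be that of the females and of limma's prior. Even the brighter probe set of the W gene HINTW, with a difference of -2.34, was among those that did not pass. The count of 0 therefore does not show that the birds were alike. The 95% intervals of the brightest probe sets reached from -1.65 for EPAS1 to 1.20 for ANGPT1.

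**Figure D3:**
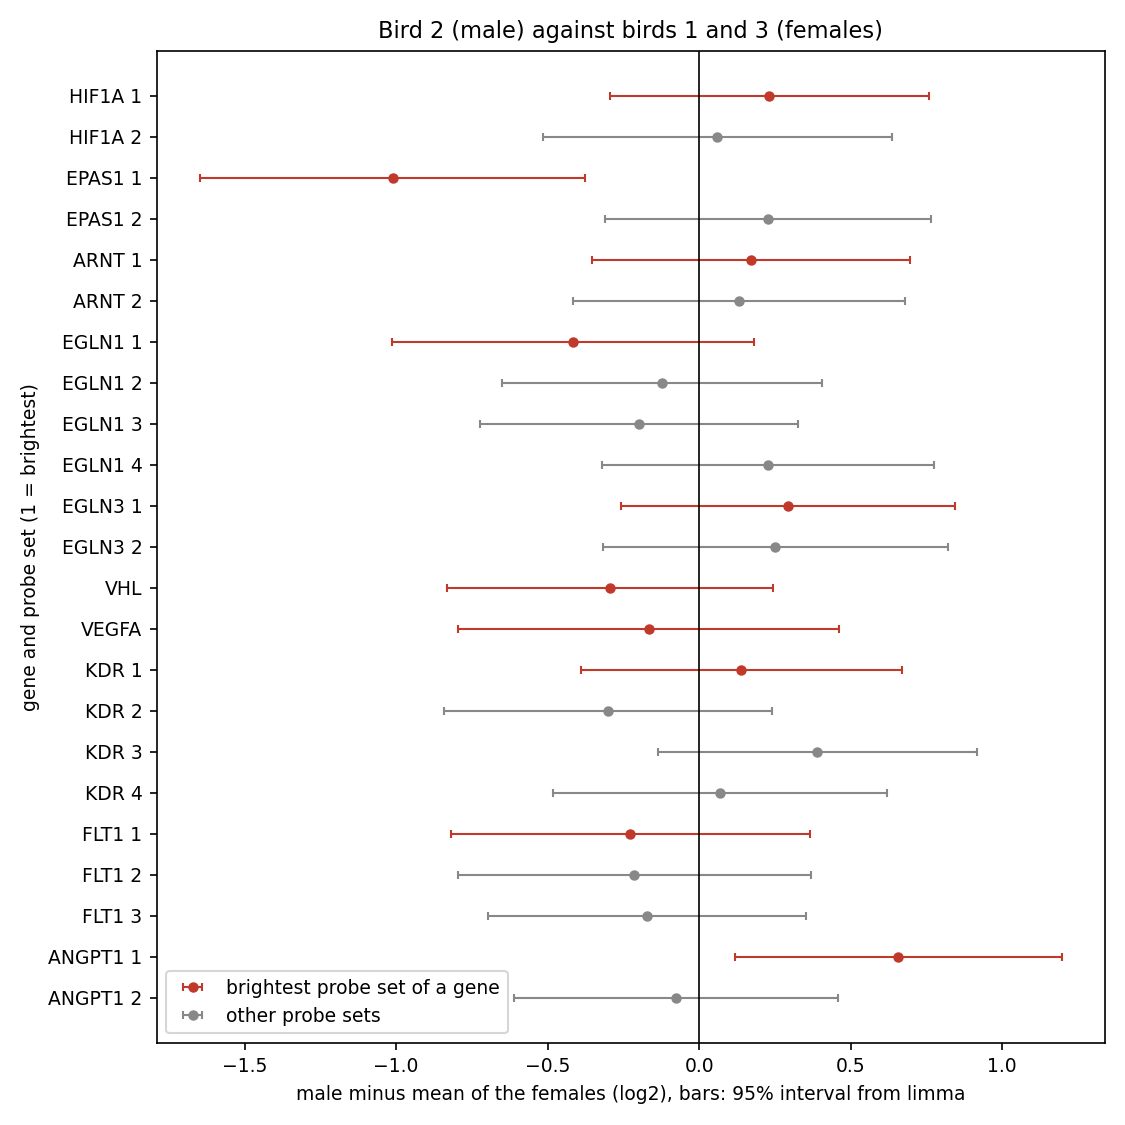
Difference of bird 2, the male, from the mean of birds 1 and 3, the females, in log2 units (x axis) for each of the 23 probe sets (rows), with 95% intervals from limma and the brightest probe set of each gene in red. The interval leaves out 0 for the brightest probe sets of EPAS1, at -1.01, and ANGPT1, at 0.66, and neither passed after adjustment.

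More than 1 probe set was present for 8 of the 10 genes. For 4 of these 8, HIF1A, ARNT, EGLN3 and FLT1, the male minus female difference had 1 sign on every probe set. For the other 4, EPAS1, EGLN1, KDR and ANGPT1, it had both signs. The same bird was highest on every probe set for ARNT and EGLN3, and the same bird was lowest on every probe set for ARNT and FLT1. Of the 23 probe sets, 8 had means below the lower quartile, and 4 were of types that can bind several transcripts.

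In a list of genes that HIF is known to switch on, many lay further apart between the birds than the members. Members are not in this list, not even EGLN3, which HIF also induces. The list was chosen with earlier results of these data known, so its counts describe these genes and test nothing. Of 27 listed target genes 20 were measured, and the range of the 3 birds was above 1 log2 unit for 10 of them, ADM, BNIP3, BNIP3L, PDK1, SLC2A1, TFRC, DDIT4, KDM3A, MXI1 and RORA, beside 6.01% of all genes. The median SD of the 20 was 0.377, against 0.223 for the brightest probe sets of the members and 0.201 over all 12913 genes. The male was lower than the mean of the females for 14 of the 20 genes, beside 45% of all genes, below both females for 8, beside 32.5%, and above both for 3, beside 41.5%. The median difference was -0.23, against 0.04 over all genes. At an adjusted p of 0.05 from limma 0 of the 20 passed, and at an unadjusted p under 0.05 6 were lower and 0 higher, beside 8.32% and 4.17% of all genes.

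BNIP3L, which marks mitochondria for removal, had the largest spread of the list. It read 9.998 in the male and 12.26 and 11.25 in the females, with an SD of 1.13 and a difference of -1.75 (standard error 0.38 and adjusted p = 0.214, both from limma). The male lay below both females by more than the 1.01 that parted them. The only BNIP3L probe set is of a type that can bind several transcripts. TFRC, the transferrin receptor that takes up iron, was set apart by bird 1, with 8.42 in the male and 9.89 and 8.35 in the females (SD 0.87). Its other probe set read 8.11 in the male and 8.08 and 8.57 in the females, where bird 3 was the highest.

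Of the 10 widely spread target genes, 7 were lowest in the male, beside 32.5% of all genes. The highest bird was bird 1 for 6 of the 10 and bird 3 for 4. The share lowest in the male among all widely spread genes was not computed. The 10 genes, and the other probe sets quoted here, were singled out after their values had been seen. SLC2A1, the glucose transporter GLUT1, read 9.76 in the male and 10.45 and 11.27 in the females, a difference of -1.10 (adjusted p = 0.326 from limma). KDM3A, a histone demethylase, read 8.38 in the male and 9.41 and 9.28 in the females, a difference of -0.97 (adjusted p = 0.238 from limma). In both genes the male lay below both females, and for KDM3A this held on each of its 3 probe sets. The others read 8.42 in the male against 9.16 and 8.88 in the females, then 7.31 in the male against 7.97 and 8.11 in the females.

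MXI1, an antagonist of MYC, read 11.61 in the male and 12.74 and 12.19 in the females, and 11.01 against 12.53 and 12.01 on its next probe set. Bird 1 was the highest on all 4 MXI1 probe sets and the male the lowest on 3 of them. BNIP3, a relative of BNIP3L, read 10.18 in the male and 10.66 and 11.31 in the females. DDIT4, an inhibitor of the growth kinase mTORC1, read 11.71 in the male and 12.17 and 12.88 in the females. For BNIP3 and DDIT4 bird 3 was the highest, as it was on 30.9% of all probe sets. PDK1, which restrains pyruvate dehydrogenase, read 8.56 in the male and 9.85 and 8.86 in the females, where bird 1 stood apart. This probe set is of a type that can bind several transcripts. ADM read 9.76 in the male and 9.53 and 10.53 in the females. RORA read 9.63 in the male and 10.56 and 9.54 in the females. In ADM and RORA the male lay between the females. Over the 9 other probe sets of 6 of these 10 genes, the male was the lowest on 6, beside 31.1% of all probe sets. Most of those belong to KDM3A and MXI1. Probe sets of 1 gene read the same RNA of the same birds and are no replicates. Their genes had already been picked for wide spread, so this count lends no further support. The other probe set of PDK1 was dim and level, at 6.81 in the male against 6.83 and 6.90 in the females.

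The other 10 measured target genes had SDs up to 0.228, and the glycolytic genes among them, picked out after their values had been seen, showed no common order of birds. LDHA, the lactate dehydrogenase of anaerobic muscle, read 13.42 in the male and 13.63 and 13.60 in the females. ENO1, an enolase, read 12.08 in the male and 11.94 and 11.81 in the females. HK2, a hexokinase, read 10.53 in the male and 10.21 and 10.32 in the females. The male was lowest for LDHA and highest for ENO1 and HK2, each by less than 0.4 log2 units. ALDOC, an aldolase, read 12.28 in the male and 12.08 and 12.53 in the females, and PFKFB3, which makes an activator of glycolysis, read 10.22 in the male and 9.93 and 10.38 in the females. For ALDOC and PFKFB3 the male lay between the females and bird 3 was the highest. NDRG1 and P4HA1, a collagen prolyl hydroxylase, had SDs of 0.102 and 0.07.

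**Figure D4:**
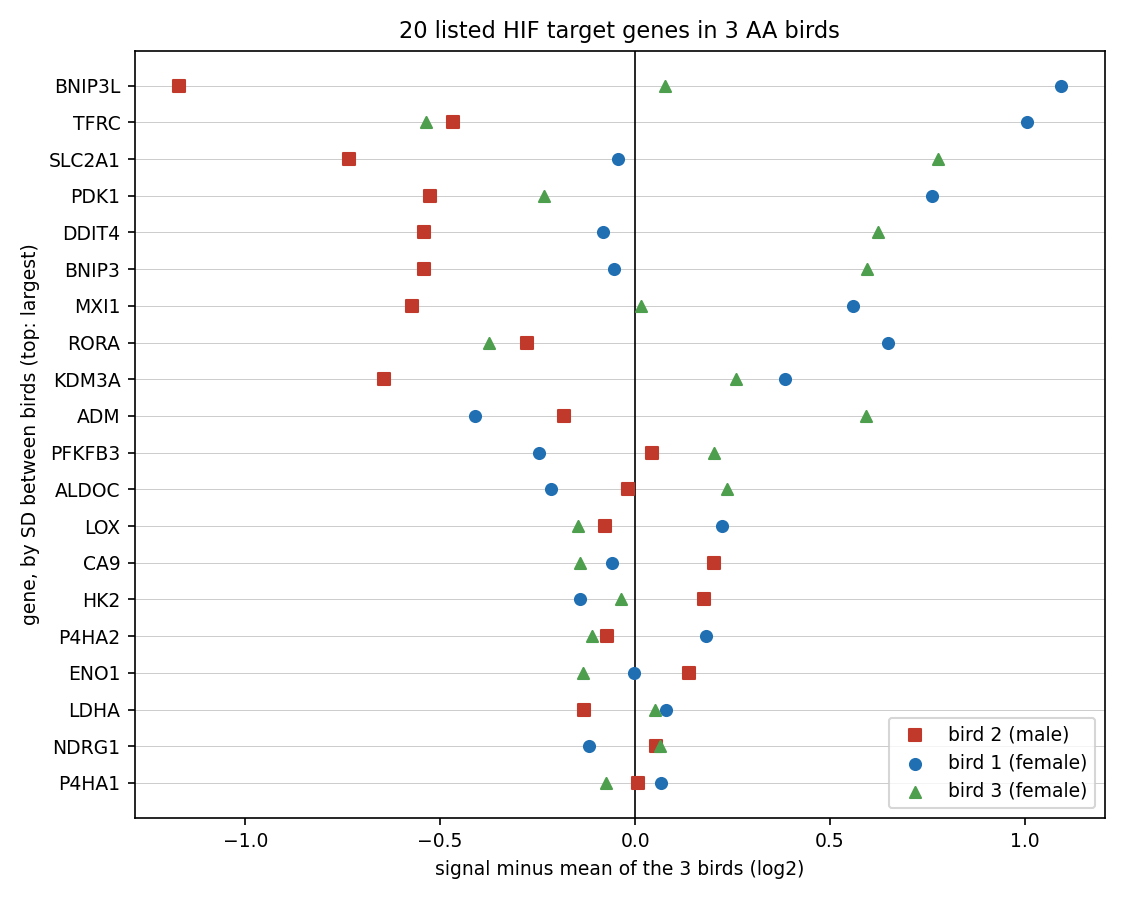
Log2 signal minus the mean of the 3 AA birds (x axis) for the 20 measured HIF target genes (rows, largest SD at the top), in bird 2, the male (squares), and the females, bird 1 (circles) and bird 3 (triangles). The male is the lowest on 7 of the 10 widest rows, beside 32.5% of all genes whatever their spread. The share among all widely spread genes was not computed, and the list was chosen with earlier results of these data known. BNIP3L is the widest at an SD of 1.13, and the narrow rows show no common order.

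Blood cells can bear on these rows, since BNIP3L and TFRC also serve maturing erythrocytes. Of 8 listed erythrocyte genes 4 were measured, all 4 higher in bird 1 than the mean of the other birds, with a median of 0.27. Of all 12913 genes 5999 were higher in bird 1. The haemoglobin gene HBAD read 14.06 in the male and 14.95 and 14.41 in the females, and HBA1 read 14.44 in the male and 14.83 and 14.77 in the females. Both had the order of birds seen in BNIP3L, with bird 1 highest and the male lowest. The brightest probe sets of EPAS1, NRP1 and KDM3A had this order too, so it is not particular to genes of blood. The share of all genes with this order was not computed. The membrane gene SLC4A1 read 9.02 in the male and 9.22 and 8.79 in the females. There bird 1 was highest and bird 3 lowest, as on the brightest probe sets of TFRC and RORA. EPB42 read 9.67 in the male and 9.51 and 9.13 in the females, with the male highest and bird 3 lowest. The mean level of the 4 was 11.80 in the male and 12.13 and 11.78 in the females, and its part in the target genes was not tested. In whole muscle, fewer cells of a type and less RNA per cell cannot be told apart.

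Among other regulators of HIF more genes were lower than higher in the male. Of 18 listed symbols, which include older names of the same gene, 12 were measured. Of the 12, 8 were lower and 4 higher in the male than in the mean of the females, beside 45% lower of all genes. The median difference was -0.35, against 0.04 over all genes. With the mean of all probe sets of a gene the median was -0.19. At an adjusted p of 0.05 from limma 0 passed, and at an unadjusted p under 0.05 also 0. The largest SDs were those of USP33, a deubiquitinating enzyme that VHL binds, and of EP300, a coactivator of HIF. USP33 read 8.43 in the male and 8.58 and 9.54 in the females, where bird 3 stood apart. EP300 read 8.88 in the male and 9.50 and 9.24 in the females, and its dimmest probe set had the same order, with 7.33 in the male and 7.87 and 7.78 in the females. On the remaining EP300 probe set the male was the highest, at 9.32 against 9.07 and 9.13. CUL2, the scaffold of the VHL ligase, was lowest in the male on all 3 probe sets, with 10.31 in the male and 10.85 and 10.78 in the females on the brightest and differences from -0.78 to -0.50. HIF1AN, the asparaginyl hydroxylase that blocks HIF activity, read 11.13 in the male and 11.64 and 11.58 in the females. Its other probe set read 8.65 in the male and 8.82 and 8.58 in the females, with the male between them. CITED2, also in this list, went the other way on its brightest probe set. It read 12.25 in the male and 11.78 and 11.80 in the females, a difference of 0.46. CUL2, HIF1AN and CITED2 were named after their values had been seen.

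In the rest of the VEGF family NRP1 stood apart. NRP1, a coreceptor for VEGFA, read 9.48 in the male and 11.38 and 10.56 in the females, a difference of -1.49 (standard error 0.34 and adjusted p = 0.219, both from limma) and an SD of 0.952. That probe set is of a type that can bind several transcripts. The other NRP1 probe set was level, with 8.46 in the male and 8.36 and 8.48 in the females. The other 4 measured genes of the 8 listed had SDs of 0.155 or less, among them FLT4, the lymphatic receptor, which read 12.36 in the male and 12.27 and 12.26 in the females. NRP2, the other neuropilin, read 10.98 in the male and 10.72 and 10.70 in the females. VEGFC, the ligand of FLT4, read 8.06 in the male and 7.98 and 8.25 in the females.

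The angiopoietin and TIE genes were also close to level. Of 8 listed genes 7 were measured, with SDs from 0.108 to 0.262. The male was above the mean of the females for 5, beside 7104 of all 12913 genes. TIE1, an endothelial receptor, read 10.36 in the male and 10.22 and 9.85 in the females. ANGPTL2, an angiopoietin-like protein, read 8.30 in the male and 7.88 and 7.84 in the females. The male was the highest in both. TEK, the receptor of ANGPT1, read 8.42 in the male and 8.55 and 8.26 in the females, with the male between them.

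Among 20 measured genes of other angiogenic signals, of 24 listed, 12 were higher and 8 lower in the male than in the mean of the females. The median difference was 0.02, or 0.06 with the mean of all probe sets of a gene. Of all 12913 genes 7104 were higher and 5809 lower in the male. FGF1, a fibroblast growth factor of muscle and vessels, and PDGFA, a growth factor for mesenchymal cells, had the largest SDs. FGF1 read 11.12 in the male and 10.17 and 9.55 in the females, a difference of 1.26 (standard error 0.30 and adjusted p = 0.227, both from limma), while its other probe set read 8.27 in the male and 8.08 and 8.31 in the females. PDGFA read 12.25 in the male and 13.71 and 12.52 in the females, where bird 1 stood apart, and the male was the lowest on its other probe set too. At an adjusted p of 0.05 from limma 0 of the 64 measured genes in the 5 pathway lists passed. At an unadjusted p under 0.05, 2 of the 64 were higher and 7 lower in the male, beside 4.17% and 8.32% of all genes.

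Genes that mark endothelium, the cells known for KDR, FLT1 and EPAS1, did not share a direction. All 10 listed genes were measured, 7 of them higher and 3 lower in the male than in the mean of the females, beside 45% lower of all genes. The 10 had a median difference of 0.14, against 0.04 over all genes, and SDs from 0.068 to 0.423. Their level ran from 7.91 to 12.14 in the male, from 7.48 to 11.89 in bird 1 and from 7.53 to 11.92 in bird 3, with means of 9.67 in the male and 9.66 and 9.58 in the females. CDH5, the cadherin of endothelial junctions, was dim, with a mean below the lower quartile of all probe sets. VWF, which encodes von Willebrand factor, had the largest SD, with 10.15 in the male and 10.88 and 10.88 in the females. At an unadjusted p under 0.05 it was the 1 gene of the 10 to pass, beside 8.32% lower and 4.17% higher of all genes, which is about the same share. CLDN5, a claudin of endothelial junctions, read 9.67 in the male and 9.03 and 9.59 in the females. The other probe sets of VWF read 8.60 in the male against 8.42 and 8.18 in the females, then 8.08 in the male against 8.05 and 8.37 in the females, so the VWF difference rests on 1 probe set as that of EPAS1 does. The mean endothelial signal lay within 0.1 log2 units in the 3 birds, though VWF alone had a range of 0.73 on its brightest probe set. EPAS1 had a range of 1.27 on its brightest probe set and 0.31 on the other. A mean of 10 genes and a single probe set are unlike measures, and the part of endothelium in the EPAS1 result was not tested.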

How the data were processed

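Total RNA of the pectoralis of 3 AA birds was labelled and hybridized, 1 Affymetrix Chicken Genome array per bird. To make the deposited log2 signals, the authors condensed the probes of each set by MaxRS, a method for hybridization across species, log-transformed them and quantile normalised the arrays. The number of arrays in that step and the version of limma, which the submitters' notes name, are not given in the material at hand.

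The deposited values were used as they are. Probe sets were named from the platform annotation, and a gene in a list is its brightest probe set. The male was compared with the females with the moderated statistics of limma 3.58.1 (lmFit and eBayes, which the study's methods also name) in R 4.3.3. Benjamini-Hochberg adjustment over 36813 probe sets, at a threshold of 0.05, was added here. It was tested on simulated data. The birds are separate animals, and 3 arrays limit the precision. The members and the gene lists were chosen with earlier results of these data known. Named were all members, list genes past the threshold and the 2 of largest SD in each list, and the other list genes were chosen after their values were seen. Alternatives were another normalization, filters on dim or shared probe sets, an intensity trend, gene means and leaving out birds. No sequences were used here.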

Additional observations from a re-analysis of the deposited data

How the results depend on the processing

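The differences between the male and the females kept their direction and stayed above the adjusted p of 0.05 from limma in all 84 recomputed values of the 23 member probe sets, under quantile normalization run again, median centring, leaving out the dimmest 25% of probe sets and an intensity trend, the smallest adjusted p being 0.268. Leaving out dim probe sets and the intensity trend alter only the error of a difference, so its direction could not change there. Normalizing again and median centring could move it little, since the arrays were already quantile normalised. Against bird 1 alone, with bird 3 left out, the sign did turn on some probe sets. The difference became 0.09 for VEGFA, -0.11 for the dimmer HIF1A probe set and -0.06 for the dimmest KDR one. With the mean of all probe sets of a gene the sign held for the 10 genes, but the difference of EPAS1 was -0.39 and that of ANGPT1 0.29. Over all probe sets the count past the threshold was 0 as reported, 5 once probe sets binding several transcripts were dropped and 2 with an intensity trend. Without 1 bird at a time the median SD of the member probe sets ran from 0.135 to 0.164. The count of HIF target genes lower in the male, 14 as reported, was 12 against bird 3 alone, 13 against bird 1 alone and 15 with gene means, alternatives added after the data were seen. Also added then, gene means moved the median difference of the regulators of HIF to -0.19, that of the other angiogenic signals to 0.06 and left that of the HIF target genes at -0.23. Without the male no difference could be computed, and without a female no test. No paired analysis was possible because all birds belong to 1 condition. The cause of the changes in count was not tested, and dim probe sets, among them both of HIF1A, limit what can be read.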

Other observations

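Genes of other cell types in the muscle also varied between the AA birds. Of 7 listed genes of pericytes and smooth muscle, 5 were higher in the male than in both females, beside 41.5% of all genes. Desmin, DES, also a gene of muscle fibres, read 12.13 in the male and 11.48 and 11.49 in the females, and TAGLN, a smooth muscle actin-binding protein, read 12.00 in the male and 12.42 and 12.86 in the females. The male was the highest in DES and the lowest in TAGLN. Of 6 fibroblast genes, 5 were higher in bird 1 than in the mean of the others. The collagen gene COL3A1 read 10.94 in the male and 12.00 and 10.36 in the females, and COL1A1 read 9.19 in the male and 9.77 and 8.998 in the females. Of 7 leukocyte genes, 3 were higher in bird 1 than in the mean of the others, 5 in the male and 5 in bird 3. CD74, a gene of antigen presentation, read 10.81 in the male and 9.89 and 11.34 in the females, and SPI1, a myeloid factor, read 12.26 in the male and 12.26 and 11.68 in the females. Bird 3 was the highest in CD74 and the lowest in SPI1. All 4 adipocyte genes were higher in bird 3 than in the mean of the others, with a median of 0.30. Of all 12913 genes, 5999 were higher in bird 1 than in the mean of the others, 7104 in the male and 6293 in bird 3. ADIPOQ, the adipocyte hormone adiponectin, read 9.85 in the male and 9.50 and 10.44 in the females, and PLIN1, a coat protein of fat droplets, read 10.07 in the male and 9.48 and 9.88 in the females. Of 4 measured fibre genes, 2 were higher in the male than in the mean of the females and 1, TNNT3, was lower. ACTA1 read the same in all 3 birds, 15.27, which is the top value of every array. Quantile normalization makes the top value equal in all arrays, so ACTA1 could not show a difference. The median difference over the 4, ACTA1 included, was 0.03. The fast light chain MYLPF read 13.35 in the male and 12.34 and 12.83 in the females, and the fast troponin TNNI2 read 14.08 in the male and 13.89 and 14.16 in the females. At an adjusted p of 0.05 from limma 0 of the 28 measured genes in these 5 lists passed. At an unadjusted p under 0.05, 2 were higher, DES and MYLPF, and 1 lower, TAGLN, beside 4.17% and 8.32% of all genes. The part of these cells in the results on HIF and vessel genes was not tested.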
